A study of Rattus norvegicus with 4 samples.

Results

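The genes described here are Egln3, Pdk1 and Pfkfb3, which are known in many mammalian cell types as targets of hypoxia-inducible factors (HIF). They were picked because all 3 had higher signals at the higher glucose level in these same arrays, and they are 3 of 14557 genes that the array names by a probe set with a single symbol. Each is measured by 1 probe set: 17821879 for Egln3, 17762924 for Pdk1 and 17716849 for Pfkfb3. The cells were INS-1, an insulin-secreting line from a rat insulinoma that serves as a model of the pancreatic beta cell. A group was held for 7 days in 22.4 mM glucose (n = 2 arrays) and another for 7 days in 11.2 mM glucose (n = 2 arrays), without any other agent named in the labels. Both groups are cultures of 1 tumour-derived line, and the level used for comparison is itself well supplied with glucose. The labels number the arrays as replicates 1 and 2 but do not say that they came from separate cultures, so the spread between them may be technical.

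HIF is a heterodimer of an oxygen-labile alpha subunit and the stable partner Arnt. When oxygen is plentiful, prolyl hydroxylases of the Egln family mark the alpha subunit for recognition by Vhl and destruction, and asparaginyl hydroxylation by Hif1an blunts its activity. When oxygen falls, the alpha subunit persists, the dimer binds short DNA elements with the core ACGTG or GCGTG, and genes of glucose uptake, glycolysis and adaptation are induced. Egln3 encodes 1 of those prolyl hydroxylases and was first described in the rat as SM-20. Pdk1 encodes a mitochondrial kinase that phosphorylates and so inactivates pyruvate dehydrogenase, the entry of pyruvate into the TCA cycle. Pfkfb3 encodes a bifunctional enzyme that makes the fructose bisphosphate which activates phosphofructokinase, the committed step of glycolysis. In beta cells these steps bear on how glucose is turned into ATP, the signal for insulin release.

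Because the 3 genes have been described as HIF targets, the stretch around the transcription start of each is shown, from 250 bases before it to 50 bases after it. The sequences are RefSeq's, build GRCr8, on the gene's own strand. Capitals mark ACGTG or GCGTG on either strand, which read as CACGT or CACGC where the element lies on the other strand.
Egln3 (chr6:77410966-77411265, minus strand): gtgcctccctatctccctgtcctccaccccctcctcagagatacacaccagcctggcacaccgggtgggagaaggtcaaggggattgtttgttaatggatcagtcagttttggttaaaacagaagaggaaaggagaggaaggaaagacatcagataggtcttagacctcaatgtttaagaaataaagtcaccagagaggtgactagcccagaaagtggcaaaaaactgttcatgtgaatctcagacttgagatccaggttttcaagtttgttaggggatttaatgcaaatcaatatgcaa
Pdk1 (chr3:77113264-77113563, plus strand): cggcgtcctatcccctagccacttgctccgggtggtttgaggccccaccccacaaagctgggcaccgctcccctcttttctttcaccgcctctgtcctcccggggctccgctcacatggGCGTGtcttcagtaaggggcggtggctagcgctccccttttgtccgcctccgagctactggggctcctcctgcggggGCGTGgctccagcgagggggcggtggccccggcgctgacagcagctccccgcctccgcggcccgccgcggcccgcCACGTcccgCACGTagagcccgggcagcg
Pfkfb3 (chr17:71944683-71944982, plus strand): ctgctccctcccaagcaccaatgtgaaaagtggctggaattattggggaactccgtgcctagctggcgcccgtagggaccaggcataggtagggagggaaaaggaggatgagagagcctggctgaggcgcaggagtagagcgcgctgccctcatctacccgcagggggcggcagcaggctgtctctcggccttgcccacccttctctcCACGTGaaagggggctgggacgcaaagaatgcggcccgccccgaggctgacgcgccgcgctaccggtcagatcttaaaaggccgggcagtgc
The Pdk1 window held 4 matches, 2 of GCGTG and 2 of ACGTG. The GCGTG matches began 131 and 54 bases before the start, and the ACGTG matches, on the other strand, began at bases 22 and 31 after it. The Pfkfb3 window held the palindrome CACGTG, 42 bases before the start, which contains ACGTG once on each strand. The Egln3 window held 0 matches. Of 33469 rat windows of the same length, 41.6% had ACGTG or GCGTG, and 6.42% had CACGTG. The windows also differed in base composition, with 44.7% G and C for Egln3, 72.0% for Pdk1 and 64.0% for Pfkfb3, against a median of 51.7% over all windows. The table gives 1 start per gene, while RefSeq lists 1 transcript for Egln3, 4 for Pdk1 and 10 for Pfkfb3. A match describes letters in a window and is not evidence of binding, and binding was not measured here.

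All values are log2 signals per probe set as the authors deposited them, with base 2 inferred from their range, and 1 unit on this scale stands for a 2-fold step. Array medians lay between 4.73 and 4.80. Replicate 1 of 11.2 mM stood apart from the other arrays: its mean absolute log2 difference was 0.246 and 0.242 from the 22.4 mM arrays and 0.213 from its own replicate, whereas the other pairs differed by 0.172 to 0.195. Beta cell identity was plain in the bright signals of Iapp, at 12.34 in 22.4 mM and 12.52 in 11.2 mM, and of Ins1, at 11.08 and 10.90 in the same order. Of 14 beta cell markers named on the array, 11 had negative differences (median -0.27), Ins2 the most negative at -1.84, and 6 of the 14 had an unadjusted limma p under 0.05, all lower (against 4.88% of all genes lower). Their summed linear signals were 28100 and 29400 at 22.4 mM, against 34500 and 32500 at 11.2 mM. The part of this shift in the results below was not tested. Of 41 markers of other islet, exocrine, stromal, endothelial and immune cells, 31 lay under the median signal, and the list medians of the differences ran from -0.073 to 0.036. Of the 10 at or above it, the brightest were Gcg, the glucagon gene, with 11.11 at 22.4 mM and 11.16 at 11.2 mM, Thy1 with 10.29 and 10.47, and Krt7 with 8.78 and 8.67. The widest differences among the 41 were -0.39 (SE 0.21) for Pdgfra and 0.34 (SE 0.16) for Ctrb1, and 0 of the 41 had an unadjusted p under 0.05.

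Egln3 had log2 signals of 7.11 and 7.46 in replicates 1 and 2 of 22.4 mM, against 5.93 and 5.79 in replicates 1 and 2 of 11.2 mM. Both high-glucose arrays lay above both others, with 1.18 between the nearest of them. The high-glucose pair was 0.35 apart, a gap that 4.16% of genes matched or exceeded between the same arrays. Means were 7.28 ± 0.25 at 22.4 mM and 5.86 ± 0.10 at 11.2 mM (SD, n = 2 each), a log2 difference of 1.43 (SE 0.15), or 2.69-fold. The deposited table holds no background measure, so the 11.2 mM signals, on arrays with medians of 4.76 and 4.79, are not shown to be above background, and the size of the difference may be understated. Across the 14557 named genes, 0.124% had a larger positive difference.

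Pfkfb3 had 9.15 and 9.18 in the 22.4 mM arrays, against 7.85 and 8.28 in the 11.2 mM arrays. The high-glucose pair agreed within 0.03, and the lower pair was 0.43 apart, a gap that 8.12% of genes matched or exceeded between the same arrays. Means were 9.17 ± 0.021 at 22.4 mM and 8.07 ± 0.30 at 11.2 mM (SD, n = 2 each), a log2 difference of 1.10 (SE 0.17), or 2.14-fold. Here 0.316% of genes had a larger positive difference.

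Pdk1 had 9.23 and 9.35 at 22.4 mM, against 8.49 and 8.73 at 11.2 mM. The groups again did not overlap, with 0.50 between the nearest arrays. Means were 9.29 ± 0.082 at 22.4 mM and 8.61 ± 0.17 at 11.2 mM (SD, n = 2 each), a log2 difference of 0.68 (SE 0.13), or 1.60-fold. A larger positive difference was seen in 1.26% of genes.

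**Figure D1:**
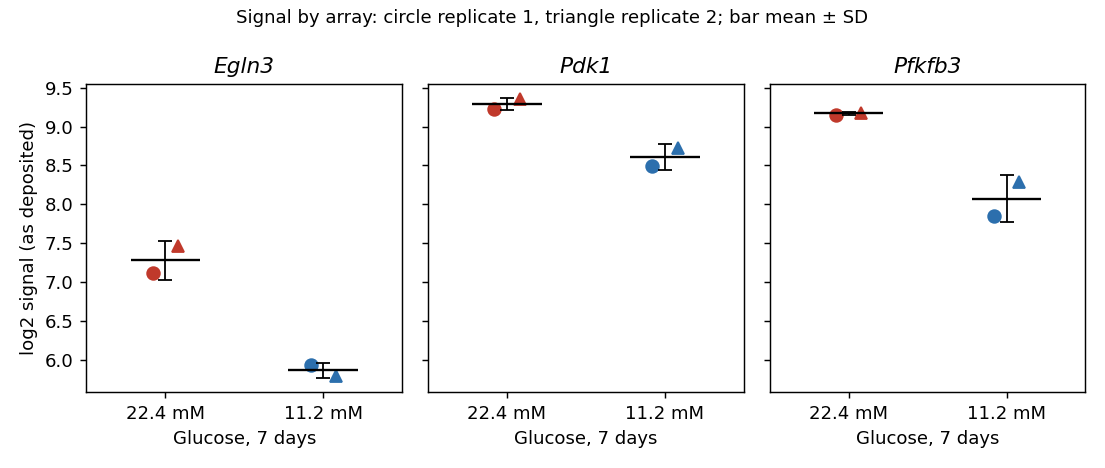
Log2 signals (vertical axis) of Egln3, Pdk1 and Pfkfb3 in 22.4 mM (red) and 11.2 mM (blue) glucose, with circles for replicate 1, triangles for replicate 2, and bars for the mean ± SD (n = 2). In each gene both 22.4 mM arrays lie above both 11.2 mM arrays, and the arrays nearest each other across groups are 1.18 apart in Egln3, 0.50 in Pdk1 and 0.87 in Pfkfb3.

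These 3 genes were chosen from this very contrast, so their differences are a description and carry no p-value. Groups without overlap, higher at 22.4 mM, were met in 21.5% of all named genes, and a difference of at least 2-fold besides in 0.433%. Egln3 and Pfkfb3 are among the latter 63 genes by choice, and Pdk1 is not. Over the 4 pairings of a high-glucose array with a lower-glucose array, the difference ran from 1.18 to 1.67 in Egln3, from 0.87 to 1.33 in Pfkfb3 and from 0.50 to 0.86 in Pdk1. Each pairing was therefore positive. The order of the differences was Egln3, Pfkfb3, Pdk1, and the ranges of Egln3 and Pfkfb3 overlapped, while that of Pdk1 lay wholly below both. The arrays that set the ends differed by gene, since replicate 1 of 11.2 mM was the lower of its pair in Pdk1 and Pfkfb3 and the higher in Egln3.

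**Figure D2:**
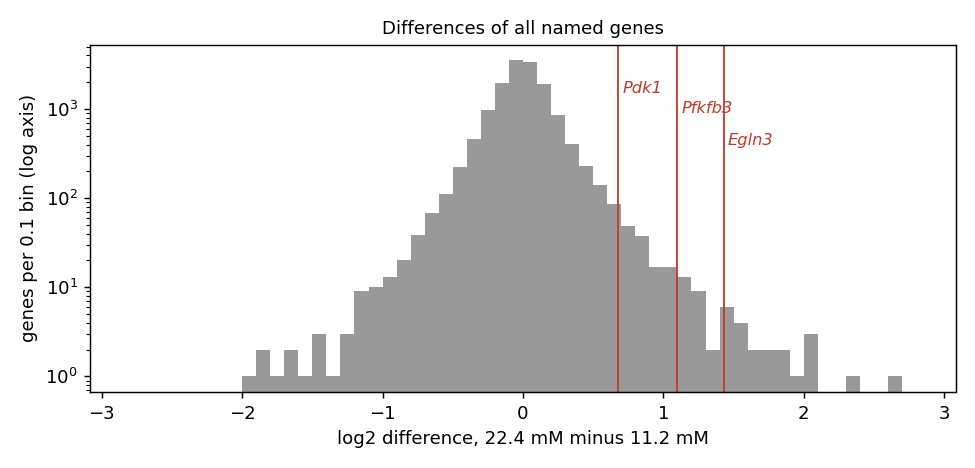
Number of genes (log axis) by log2 difference, 22.4 mM minus 11.2 mM, over 14557 named genes in bins 0.1 wide, with lines at 1.43 for Egln3, 1.10 for Pfkfb3 and 0.68 for Pdk1. The 3 lines fall in the right tail of a distribution whose median is -0.0038.

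Other genes of the same system were tested with limma over all 36685 probe sets, with Benjamini-Hochberg adjustment over all of them. That fit called 0 probe sets (0%) at an adjusted p under 0.05, with a lowest adjusted p of 0.218. At an unadjusted p under 0.05 there were 685 genes higher (4.71%) and 710 lower (4.88%) at 22.4 mM. Where only the 14824 probe sets with 1 gene symbol were tested, limma called 43 higher (0.29%) and 19 lower (0.128%), with 0 of the related genes among them. The related genes below are therefore given with their values, and none of them passed the test. Of 75 such genes, 6 were higher and 6 lower at an unadjusted p under 0.05.

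Of 12 named genes of the machinery upstream of HIF targets, 0 passed the test. Of these, 4 had positive and 8 negative differences, with a median of -0.049 against -0.0038 over all genes; without replicate 1 of 11.2 mM, 5 were positive and 7 negative, with a median of -0.071. Egln2, the other gene of the Egln family named on the array, had 7.43 and 7.53 at 22.4 mM, against 7.25 and 7.68 at 11.2 mM. The high-glucose arrays lay inside the range of the lower pair, and the difference of 0.015 had a 95% interval from -0.44 to 0.47. Epas1, the HIF alpha subunit prominent in endothelium, had 8.04 and 8.17 at 22.4 mM, against 8.52 and 8.35 at 11.2 mM. Its difference of -0.33 (SE 0.12) was the 1 in this group with an unadjusted p under 0.05 (limma adjusted p = 0.523). It was the opposite in sign to Egln3, Pdk1 and Pfkfb3, and this contrast between genes was not tested.

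Arnt2, a paralogue of the HIF partner Arnt, differed by -0.45 (SE 0.19), or by -0.22 without replicate 1 of 11.2 mM. Arnt itself differed by -0.07 (SE 0.12), Hif1an by -0.02 (SE 0.10) and the ubiquitin ligase subunit Vhl by -0.11 (SE 0.12), each with overlapping groups. Hif3a, an alpha subunit with inhibitory forms, had a dim 4.94 at 22.4 mM and 4.77 at 11.2 mM. Cited2, which competes with HIF for the coactivators Crebbp and Ep300, differed by -0.28 (SE 0.14); leaving out replicate 2 of 11.2 mM gave -0.15. Eloc, which joins Vhl to its ligase, differed by 0.13 (SE 0.096). No probe set used here named Hif1a or Egln1, so the main alpha subunit and the main HIF prolyl hydroxylase were not analysed here.

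Other textbook HIF targets named on the array had differences of both signs. Of 33 named genes, 0 passed the test, 18 had positive and 15 negative differences, and their median was 0.011. Without replicate 1 of 11.2 mM, 17 were positive and 16 negative, with a median of 0.0063. Over all 4 arrays, groups lay apart upward in 10 (30.3%, against 21.5% of all genes) and downward in 9 (27.3%, against 23.1%). Some of these gaps were near 0, as in Hk2 upward and Kdm3a downward, and 8 of the 33 genes lay under the median signal. Without replicate 1 of 11.2 mM, 15 lay apart upward (45.5%, against 35.8% of all genes) and 10 downward (30.3%, against 37.6%). In this list 1 gene had an unadjusted p under 0.05 on the higher side (against 4.71% of all genes) and 3 on the lower (against 4.88%). The 3 genes are called HIF targets from prior knowledge only, and whether HIF had a part in their differences was not tested.

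Bhlhe40, a transcriptional repressor also counted among glucose-responsive ChREBP targets, was the 1 listed target with a difference above 1. It had 11.30 and 11.40 at 22.4 mM, against 9.94 and 10.49 at 11.2 mM. The difference was 1.14 (SE 0.20, limma adjusted p = 0.30), with both high-glucose arrays above both others. Pgk1, the glycolytic kinase, differed by 0.23 (SE 0.11). Lower values stood at Slc2a1, the widely expressed glucose transporter and a classical HIF target, with 8.05 and 8.26 at 22.4 mM against 8.64 and 8.56 at 11.2 mM. Its difference was -0.45 (SE 0.12, limma adjusted p = 0.425), and it stayed between -0.55 and -0.34 when any 1 array was left out.

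Insig2, an ER protein that restrains sterol synthesis, differed by -0.30 (SE 0.10), and the secreted glycoprotein Stc2 by -0.29 (SE 0.11). Bnip3, a mitochondrial protein that acts in mitophagy, differed by -0.35 (SE 0.14), or by -0.19 without replicate 1 of 11.2 mM, and the stress-responsive Ndrg1 by -0.19 (SE 0.10). In these 4 genes both 22.4 mM arrays lay below both 11.2 mM arrays. Hk2, the hexokinase of many proliferating cells, had a dim 3.91 at 22.4 mM and 3.89 at 11.2 mM, so that no difference could be read from it. Ddit4, an inhibitor of mTOR signalling, had the most negative difference of the list, -0.79 (SE 0.64), with 6.25 and 6.58 at 22.4 mM against 8.17 and 6.24 at 11.2 mM. It rested on replicate 1 of 11.2 mM, and without replicate 1 the difference was 0.17. It is outside the rule for named genes and was chosen after its values were seen, as the end of the range. Vegfa and Ldha were not named by a probe set used here. The same holds for other listed targets, among them the glycolytic genes Hk1, Gpi, Pfkp, Aldoa, Tpi1, Gapdh, Pgam1 and Eno1. The list therefore says little about the glycolytic HIF targets.

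**Figure D3:**
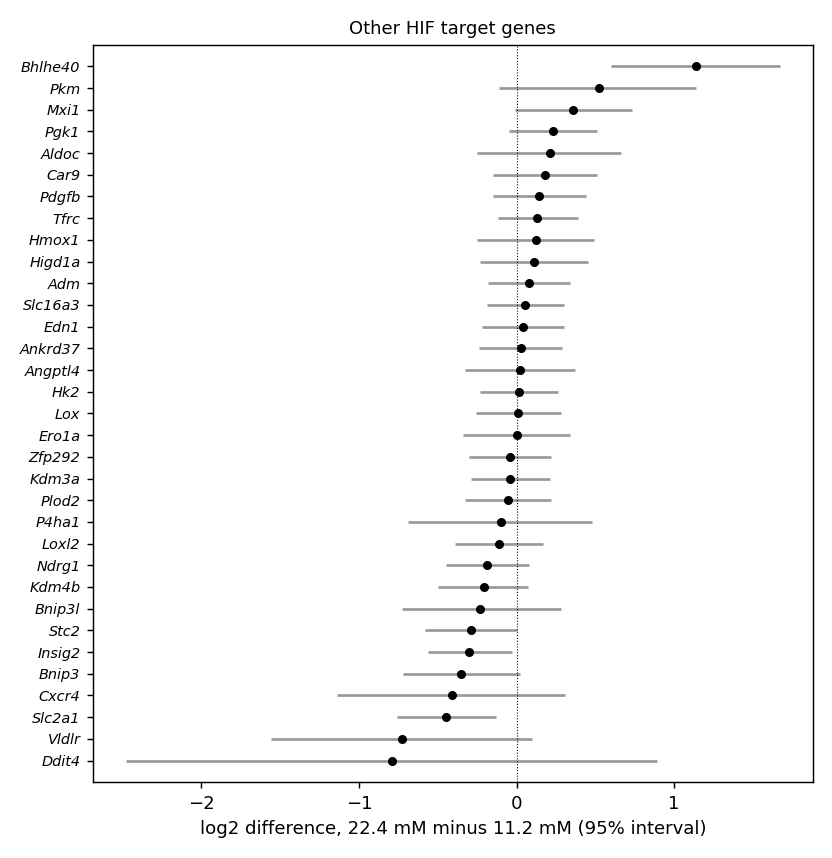
Log2 differences, 22.4 mM minus 11.2 mM (points), with 95% intervals of the moderated fit (lines), for the 33 other HIF target genes named on the array, sorted by size. They spread to both sides of 0, from -0.79 for Ddit4 to 1.14 for Bhlhe40, with a median of 0.011.

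Pdk1 acts on pyruvate dehydrogenase, and most listed genes around that complex had positive differences in the same arrays. Of 11 named genes, which are the complex, its regulators and 2 further enzymes that use or make pyruvate, Pc and Ldhb, 8 had positive and 3 negative differences. The groups lay apart upward in 7 (63.6%, against 21.5% of all genes) and downward in 0, with a median of 0.12. Without Pc and Ldhb, 6 of 9 were positive, and 5 lay apart upward (55.6%), with a median of 0.12. The gene at both medians was Pdha2, with a dim 3.65 at 22.4 mM and 3.53 at 11.2 mM. It is also counted among those apart upward, and 2 of the 11 genes lay under the median signal. None of the 11 passed over all probe sets, and 3 had an unadjusted limma p under 0.05, all higher (against 4.71% of all genes). Replicate 1 of 11.2 mM, the array that stood apart, was the lowest of the 4 in Pdhb, Dlat, Pdha1 and Pdk3. Without it 9 of the 11 differences were positive, and the median was again 0.12. Then 8 genes lay apart upward (72.7%, against 35.8% of all genes in the same 3 arrays) and 2 downward (18.2%, against 37.6%).

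Pdhb, the beta subunit of the first enzyme of the complex, had 9.82 and 9.91 at 22.4 mM, against 8.84 and 9.06 at 11.2 mM. Its difference of 0.91 (SE 0.12, limma adjusted p = 0.252) lay between 0.80 and 1.02 when any 1 array was left out. Over all the settings tried its adjusted p ran from 0.0509 to 0.827. Dlat, the acetyltransferase core, had 8.0 and 8.21 at 22.4 mM against 7.64 and 7.66 at 11.2 mM, a difference of 0.46 (SE 0.12, limma adjusted p = 0.408). Pdha1, the alpha subunit that Pdk1 phosphorylates, averaged 10.05 ± 0.075 at 22.4 mM and 9.73 ± 0.10 at 11.2 mM (SD, n = 2 each) without overlap, a difference of 0.32 (SE 0.11). Enzyme activity and phosphorylation were not measured.

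Within the kinase family, Pdk3 had 9.88 and 9.93 at 22.4 mM against 9.34 and 9.72 at 11.2 mM. The difference was 0.37 (SE 0.16, limma adjusted p = 0.572), and 0.18 without replicate 1 of 11.2 mM. Pdk4, the isoform induced by fasting and fatty acids, had a dim 3.48 at 22.4 mM and 3.51 at 11.2 mM, with overlapping arrays. Pdk2 was not named by a probe set used here. Whether Pdk1 differed from its paralogues in its response was not tested.

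Around Pfkfb3, 4 other enzymes of the phosphofructokinase step were named, and 0 passed the test. Of their differences 3 were positive and 1 negative, with a median of 0.13, and 2 of the 4 genes lay under the median signal. Pfkl, the liver-type phosphofructokinase, had 9.15 and 9.16 at 22.4 mM, against 8.20 and 8.66 at 11.2 mM. The difference was 0.73 (SE 0.17, limma adjusted p = 0.392), or 0.50 without replicate 1 of 11.2 mM, and the groups did not overlap. As in Pfkfb3, the high-glucose pair was nearly level and replicate 1 of 11.2 mM was the lowest. The muscle-type Pfkm differed by 0.10 (SE 0.14), with overlap, and by -0.04 without replicate 1 of 11.2 mM. Pfkfb1, a paralogue of Pfkfb3 best known in liver and muscle, had a dim 4.14 at 22.4 mM and 3.98 at 11.2 mM. The phosphatase Fbp2 differed by -0.064 (SE 0.20), and by 0.20 without that array. Pfkfb2 and Pfkfb4 were not named by a probe set used here.

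**Figure D4:**
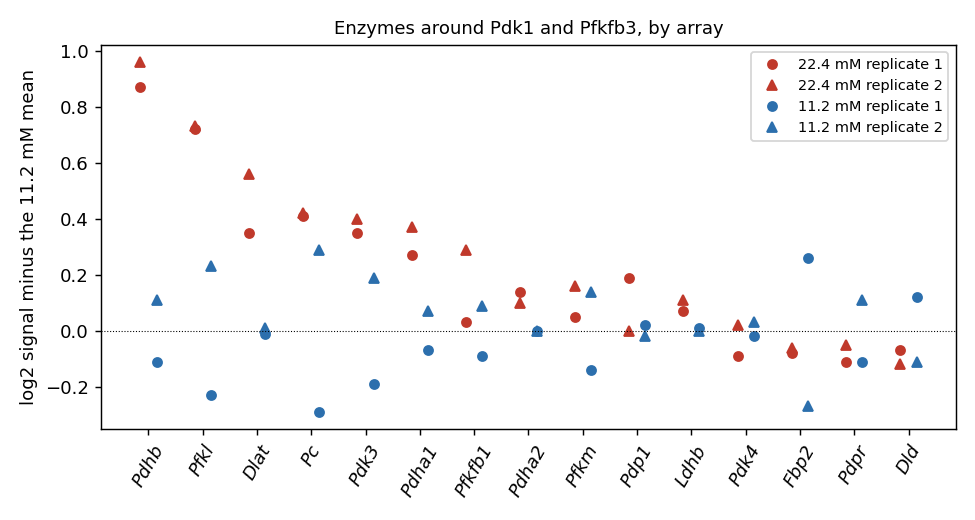
Log2 signal minus the gene's 11.2 mM mean (vertical axis) for 15 genes: pyruvate dehydrogenase and its regulators, Pc, Ldhb and the phosphofructokinase step, in 22.4 mM (red) and 11.2 mM (blue) glucose, circles for replicate 1 and triangles for replicate 2. Pdhb shows the widest separation, with a difference of 0.91, followed by Pfkl with 0.73 and Dlat with 0.46.

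Egln3 belongs to the oxygenases that need oxygen, iron and 2-oxoglutarate. A further 19 genes listed by family for that class were named on the array, among them collagen hydroxylases, histone demethylases, RNA demethylases and DNA dioxygenases. Whether each product, as that of P3h4, is an active oxygenase was not checked. Of the 19, 5 had positive and 14 negative differences, with a median of -0.10. Groups lay apart downward in 10 (52.6%, against 23.1% of all genes) and upward in 3 (15.8%, against 21.5%). Without replicate 1 of 11.2 mM, 5 were again positive and 14 negative, with a median of -0.15. The largest positive difference was 0.39 (SE 0.13, limma adjusted p = 0.490), for the collagen prolyl hydroxylase gene P4ha3, which had 5.78 and 5.94 at 22.4 mM against 5.35 and 5.58 at 11.2 mM. Ogfod2 differed by -0.39 (SE 0.10), P3h4 by -0.31 (SE 0.11) and the DNA dioxygenase Tet3 by -0.42 (SE 0.17). Without replicate 1 of 11.2 mM the Tet3 difference was -0.23. Egln3, at 1.43, lay above every one of these 19, 4 of which were also counted as HIF targets, as its choice from this contrast makes likely.

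The genes with profiles most like each of the 3 were found by the Euclidean distance between mean-centred log2 profiles over the 4 arrays, among 8505 genes at or above the median signal. Nearest to Egln3 were the growth factor gene Hbegf (distance 0.27), the glycosyltransferase C1galt1 (0.32) and the scaffold protein Cnksr2 (0.37). Their differences were 1.19, 1.56 and 1.61. Nearest to Pdk1 were Gas6, a ligand of TAM receptors (0.034), the heparan sulfate endosulfatase Sulf2 (0.044) and Fstl5, a follistatin-like secreted protein (0.044). Nearest to Pfkfb3 were Dpysl3, a protein of neuronal growth cones (0.05), the axon guidance ligand Slit2 (0.089) and Eeig2 (0.10). Between the 3 genes themselves the distance was 0.45 for Pdk1 and Pfkfb3, 0.56 for Egln3 and Pfkfb3 and 0.81 for Egln3 and Pdk1. Each of the 3 had closer matches elsewhere than among themselves. A search of 8505 genes makes that likely for any gene, so nothing about the 3 is drawn from it. With 4 arrays such a distance reflects mainly the group difference and the gap within each pair.

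The 3 genes lie on chromosomes 6, 3 and 17 of GRCr8. Among the 12 nearest named protein-coding genes, 2 on each side of each, which lie outside the rule for named genes and were looked up afterwards, differences ran from -0.23 for Akap6 to 0.52 for Hat1, a histone acetyltransferase gene near Pdk1. Without replicate 1 of 11.2 mM they were -0.44 for Akap6 and 0.24 for Hat1. None reached an adjusted p under 0.05 in limma over all probe sets. Sptssa and Snx6 beside Egln3 differed by 0.21 (SE 0.13) and 0.057 (SE 0.097), and Rbm17 beside Pfkfb3 by 0.15 (SE 0.094).

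With 1 array left out at a time, the difference lay between 1.25 and 1.60 in Egln3, between 0.56 and 0.80 in Pdk1 and between 0.89 and 1.31 in Pfkfb3. Without replicate 1 of 11.2 mM, the array farthest from the others, it was 1.5 in Egln3, 0.56 in Pdk1 and 0.89 in Pfkfb3. As all pairings across the groups were positive, leaving out an array could not turn a sign.

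**Figure D5:**
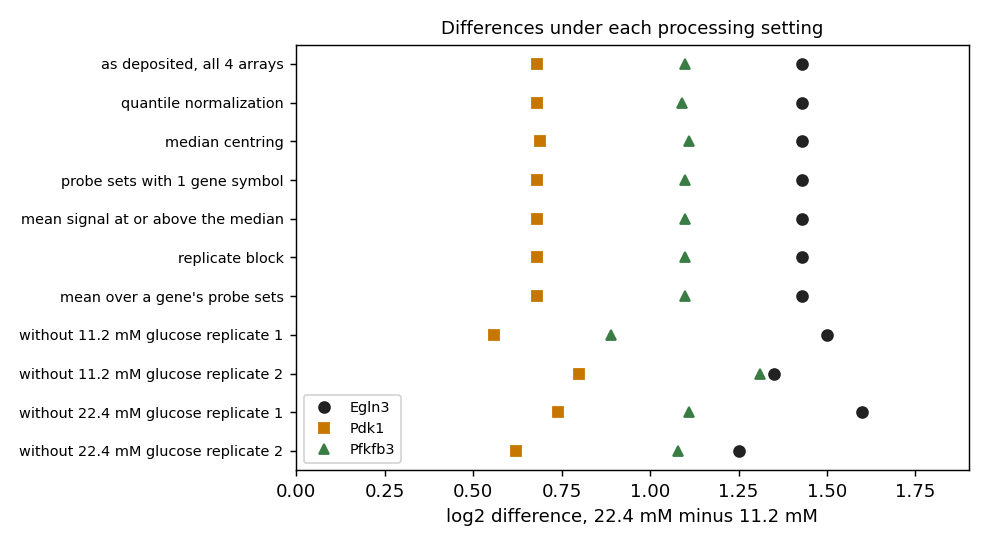
Log2 differences, 22.4 mM minus 11.2 mM (horizontal axis), of Egln3 (circles), Pdk1 (squares) and Pfkfb3 (triangles) under the deposited values and 10 other settings (rows). All points are positive, and the ends, 1.25 to 1.60, 0.56 to 0.80 and 0.89 to 1.31, come from leaving out 1 array.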

How the data were processed

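Total RNA of INS-1 cells was amplified, labelled with biotin as fragmented single-stranded cDNA and hybridized to Affymetrix arrays, per the labels' protocols. The authors deposited a log2 signal for each of 36685 probe sets on 4 arrays; base 2 was inferred from the range of 2.23 to 13.2, while background correction, normalization and software are steps not given in the sources used here. The values were used as deposited. Platform annotation, which can be old, gave 1 symbol to 14824 probe sets, several to 829 and none to 21032; 14670 matched a RefSeq table of assembly GRCr8 by Entrez identifier, and 0 symbols changed. The brightest probe set over the 4 arrays stood for a gene. Coordinates are given only for the RefSeq start windows, since the array's build is not stated.

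Differences are 22.4 mM minus 11.2 mM from limma 3.58.1 in R 4.3.3 (lmFit, eBayes, two-sided, 2 residual degrees of freedom), with Benjamini-Hochberg adjustment over all probe sets. Precision is limited by the 4 arrays, with a median SE of 0.12. The code was tested on simulated data. Genes and lists were chosen with earlier results of these data known. Named genes were the 3 genes, their families, HIF subunits and set targets, the 4 smallest p per list, the brightest markers and the 3 nearest profiles. Promoter motifs were searched with Python 3.11.15. Same-numbered arrays were checked for pairing, and their deviations from group means correlated at -0.0778, so they were not treated as pairs. Alternatives were normalization, the probe sets tested, the variance model, a replicate block, the choice among probe sets and leaving out each array; list counts without replicate 1 of 11.2 mM, or without Pc and Ldhb, were added after seeing the data.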

Additional observations from a re-analysis of the deposited data

How the results depend on the processing

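With 1 array left out, the differences of Egln3, Pdk1 and Pfkfb3 ranged from 1.25 to 1.60, from 0.56 to 0.80 and from 0.89 to 1.31. In a design of 2 against 2 arrays with all pairings positive, such a fit cannot turn the sign, so these ranges do not show stability. Among the alternatives that kept all arrays, limma called 62 probe sets (43 higher, 0.29%, and 19 lower, 0.128%) in 1 setting only. There the 14824 probe sets with 1 gene symbol were tested alone. Each of the other settings run for this count gave 0. Testing only probe sets with a mean signal at or above the median also adjusted over fewer tests, and limma called 0. What raised the count to 62 was not tested. Of the 75 related genes, 0 were called under any of the 11 alternatives, Pdhb coming nearest with an adjusted p of 0.0509 among probe sets with 1 symbol. With 1 array left out, the median of the other HIF targets lay between -0.013 and 0.0063, so its sign is not settled. The median was -0.043 over the 25 of them at or above the median signal. With the replicate number as a block the same differences resulted and limma called 0 probe sets, against 0 without it. The labels give same-numbered arrays only a number in common. Their deviations correlated at -0.0778, which cannot show whether they were handled together. Where 1 array is left out, the lone array of a group is assumed to vary like the other pair. Background signals are not given, so the depth of dim signals, as of Egln3 at 11.2 mM, is unknown.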
